A study of Mus musculus with 18 samples.

Results

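Ornithine, an amino acid made from arginine, is turned into putrescine by ornithine decarboxylase (Odc1). Spermidine synthase (Srm) and spermine synthase (Sms) then lengthen putrescine to spermidine and spermine with aminopropyl groups that come from S-adenosylmethionine through Amd1. These positively charged molecules bind nucleic acids and are needed by growing cells. Sat1 acetylates spermidine and spermine so that they can be broken down or exported. The antizymes Oaz1 and Oaz2 bind Odc1 protein and send it to the proteasome, and Azin1, a relative of Odc1 without its enzyme activity, binds antizyme and so spares Odc1. Odc1 and Srm are known target genes of the transcription factor Myc. Much of the control of Odc1, Sat1 and the antizymes acts on translation and protein stability, which an RNA measurement does not see.

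The 8 genes above were taken as the polyamine genes of a mouse array series, and each was represented by every probe set that names it alone in the platform annotation. This gave 12 of 45101 probe sets, for 6 of the 8 genes: 3 each for Odc1, Oaz2 and Azin1 and 1 each for Srm, Sat1 and Oaz1. All 12 passed the filter on dim probe sets. The 3 probe sets that list Sms also list Sms-ps, a pseudogene, and no listed probe set names Amd1, so both genes are without a value here. One further Oaz1 probe set that also lists a pseudogene was not used.

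The 18 arrays, 1 per mouse, cover 3 groups. The 5 control mice are called LckCre in the series' design text and wild type in the sample labels, and this was not settled. The 5 mice called CD4Cre-ctnnbex3 carry Cre driven by Cd4 regulatory sequences, which act from the stage at which thymocytes start to express Cd4, and a Ctnnb1 allele whose product, beta-catenin, is stabilised. They were sampled before transformation of their T cells, and 8 further mice of this genotype had lymphomas. Total RNA came from all thymocytes or from the tumour mass, so other cells of either were included. No age of the mice was used, as the labels name none, and the Cre driver of the control named in the design text differs from that of the other groups.

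Signals are the deposited linear intensities of each probe set, and differences are in log2 units after a floor at an intensity of 53.5. No value of a member lay at the floor. A probe set is said to rise or fall where limma, fitted on the 2 groups compared and adjusted over 24377 probe sets by the Benjamini-Hochberg method, gave an adjusted p under 0.05. The 3 comparisons share groups with each other and are not independent. Array medians ran from 125 to 166. Of 9 measured T-lineage markers, 9 were lower in lymphomas than in controls, where 22.7% of all genes were lower. The summed intensity of these markers was 14361 to 23868 in lymphomas, 31375 to 48021 before transformation and 37508 to 43460 in controls. Ptcra was at the floor in all 8 lymphomas. In bulk tissue, fewer cells of a type and less RNA per cell cannot be told apart. Xist and Eif2s3y gave female signals in 2 controls and 6 lymphomas, male signals in 3 controls, all 5 mice before transformation and 1 lymphoma, and both in lymphoma 4, which was kept.

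The upstream sequences of the 3 members that changed and have an entry in the RefSeq promoter table (GRCm38.p6) are shown so that the genes that moved in different directions can be compared. Each covers up to 250 bases 5′ of the annotated start, 5′ to 3′ on the gene's strand, and bases inside the annotated gene were left out, which shortens Odc1 to 185. They lie at chr12:17544623-17544807 on the plus strand for Odc1, chr10:80826406-80826655 on the plus strand for Oaz1 and chrX:155216450-155216699 on the minus strand for Sat1. Capitals mark matches of the motifs searched on both strands.
Odc1: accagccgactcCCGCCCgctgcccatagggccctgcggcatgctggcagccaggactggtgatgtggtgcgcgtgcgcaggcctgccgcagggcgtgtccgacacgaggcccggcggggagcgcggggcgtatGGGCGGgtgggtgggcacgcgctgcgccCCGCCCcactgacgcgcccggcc
Oaz1: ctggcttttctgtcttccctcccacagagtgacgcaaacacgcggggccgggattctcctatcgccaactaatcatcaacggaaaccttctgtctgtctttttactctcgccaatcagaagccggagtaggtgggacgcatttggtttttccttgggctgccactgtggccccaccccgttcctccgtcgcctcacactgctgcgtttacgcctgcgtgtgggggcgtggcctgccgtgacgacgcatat
Sat1: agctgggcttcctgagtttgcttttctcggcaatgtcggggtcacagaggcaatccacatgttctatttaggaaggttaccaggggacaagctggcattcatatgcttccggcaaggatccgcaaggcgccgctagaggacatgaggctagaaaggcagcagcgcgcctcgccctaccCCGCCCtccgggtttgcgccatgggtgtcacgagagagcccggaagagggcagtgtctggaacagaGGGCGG
The motifs were the E-box CACGTG bound by Myc and Max, the TATA letters TATAAA, the core CTTTGA of the TCF/LEF partners of beta-catenin, and the GC box GGGCGG bound by Sp1. The GC box matched 3 times upstream of Odc1, 2 times upstream of Sat1 and 0 times upstream of Oaz1. Of 32841 windows of 250 bases in the table, 32.7% hold a GC box, 6.02% an E-box, 13.8% the TCF/LEF core and 12.4% the TATA letters. These windows were not cut at annotated genes, so the shares are not like for like with the shortened Odc1 sequence. None of the last 3 was found in the 3 sequences, which says only that these letters are not in these windows. GC content was 77.8% for the Odc1 sequence, 58.0% for Oaz1 and 59.6% for Sat1.

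**Figure D1:**
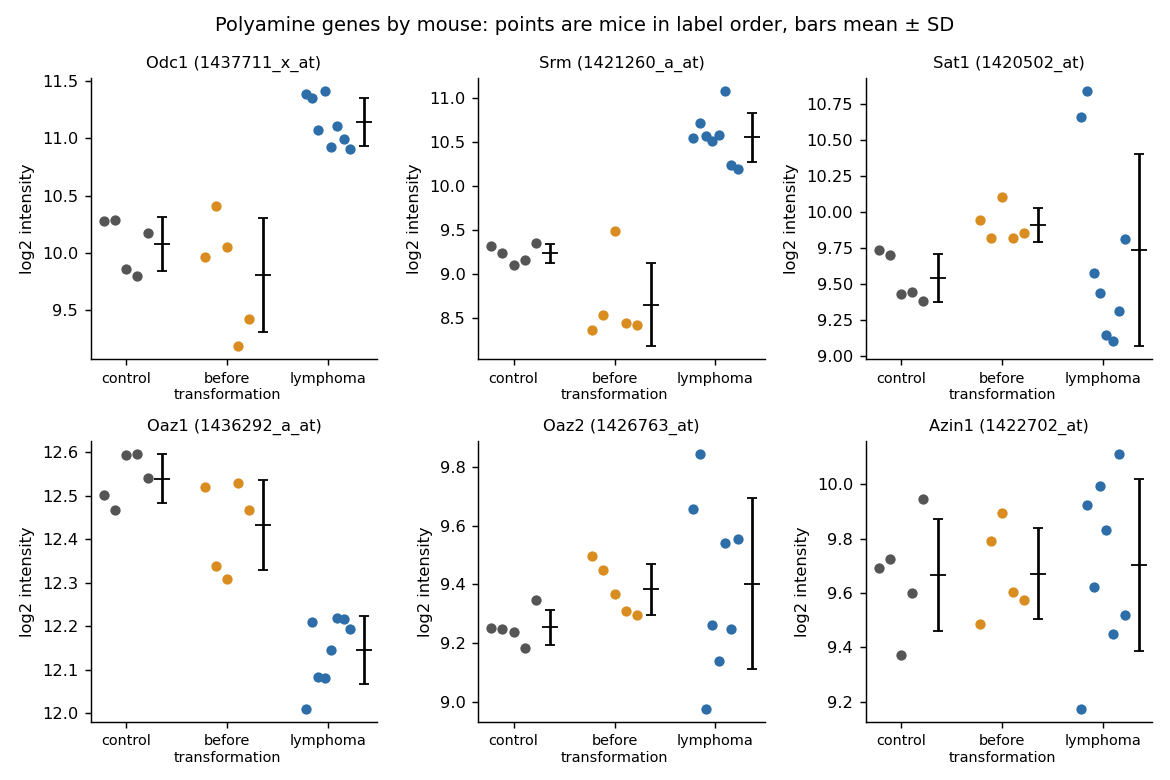
Log2 intensity (vertical axis) of the probe set with the highest mean of each gene in every mouse, by group; points are mice and bars the mean ± SD. Odc1 and Srm lie higher in all 8 lymphomas than in any other mouse, Oaz1 lies lower in all 8, and Sat1 spreads most among the lymphomas (log2 SD of 0.67).

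The synthetic enzymes were followed first. Odc1, the entry step, was higher in lymphomas and did not pass the test before transformation. With its brightest probe set (1437711_x_at) the controls 1 to 5 measured 1239, 1246, 931, 888 and 1157, and the mice before transformation measured 998, 1364, 1062, 581 and 687. The 8 lymphomas ran from 1922 to 2727 with a median of 2183, so every lymphoma lay above every other mouse, while the first 2 groups overlapped. Odc1 rose by 1.34 ± 0.18 (log2, SE, 8 lymphomas against 5 mice) over mice before transformation, 2.53-fold, with a limma adjusted p of 7.67e-05. Over controls it rose by 1.07 ± 0.12, 2.1-fold (limma adjusted p = 1.1e-05).

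Each Odc1 probe set gave the same picture. The second (1438761_a_at) rose by 1.39 ± 0.14 over mice before transformation and by 1.15 ± 0.11 over controls (limma adjusted p of 9.18e-06 and 2.27e-06). The dimmest (1427364_a_at) read 142 to 208 in controls, 143 to 207 before transformation and 261 to 441 in lymphomas. Its rise was 1.01 ± 0.15 over mice before transformation (2.02-fold, limma adjusted p = 0.000144) and 1.07 ± 0.15 over controls (limma adjusted p = 5.42e-05). For all 3 probe sets the groups did not overlap, a state seen in 6.73% of all probe sets for lymphomas above mice before transformation and in 7.82% for lymphomas above controls. Before transformation the difference from control was -0.27 ± 0.21 (limma adjusted p = 0.539), -0.24 ± 0.18 (limma adjusted p = 0.495) and 0.06 ± 0.14 (limma adjusted p = 0.887). The spread of the brightest probe set was wider there (log2 SD 0.50, n = 5) than in controls (0.23, n = 5) or lymphomas (0.21, n = 8), with mice 4 and 5 below all controls and mouse 2 above them. The difference in spread was not tested.

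Srm, which makes spermidine, had the largest rise of the 6 members in lymphomas over mice before transformation. Its single probe set (1421260_a_at) read 636, 605, 549, 571 and 655 in controls 1 to 5. Before transformation it read 330, 371, 716, 348 and 342, so that 4 mice lay below every control and mouse 3 above every control. Lymphomas ran from 1165 (lymphoma 8) to 2154 (lymphoma 6), with a median of 1503, above every mouse of the other groups.

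The rise of Srm over mice before transformation was 1.90 ± 0.19 on the log2 scale (3.73-fold, limma adjusted p = 7.82e-06), and over controls 1.32 ± 0.13 (2.49-fold, limma adjusted p = 2.56e-06). Before transformation the difference from control was -0.58 ± 0.19 and did not pass with all 5 mice (limma adjusted p = 0.0800). It depended on mouse 3: without that mouse Srm fell by 0.79 ± 0.09 (limma adjusted p = 0.000209). In mice numbered 1 and 2 alone it fell by 0.83 ± 0.12 (limma adjusted p = 0.0222), and in those numbered 3 and up the difference was -0.42 (limma adjusted p = 0.392). Over its 23 alternative fits the adjusted p ran from 0.000209 to 0.392.

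Mouse 3 before transformation also stood apart in other RNAs. Its summed intensity of 6 measured B-cell markers was 2681, against 692 to 1075 in the other 4 mice of the group, and the part of these cells in its Srm value was not tested. Myc read 517 in this mouse and 132 to 223 in the other 4. Slc7a1, an importer of arginine and ornithine, read 1366 against 494 to 630. Both genes were singled out for this mouse after its values were seen, and no share of all genes that stood apart in it is given. The summed intensity of T-lineage markers was 31375 in mouse 3, against 38580 to 48021 in the other 4.

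The genes whose pattern lay nearest to Srm over the 18 arrays were Cad, which starts pyrimidine synthesis, Rcl1, a nucleolar factor of ribosome assembly, and Gm6607. Likeness was the root-mean-square difference of log2 values centred on each gene's own mean. It was 0.179 for Cad, 0.232 for Rcl1 and 0.243 for Gm6607, where Srm itself varied by 0.875. Cad read 432 in mouse 3 before transformation and 211 to 310 in the other 4, and 860 to 1242 in lymphomas. Nearest to Odc1, which varied by 0.672, were Nsun2, an RNA methyltransferase (0.142), Rrp15, a factor of ribosome assembly (0.167), and Hspa9, the mitochondrial Hsp70 chaperone (0.174). These 6 genes were picked for their likeness over the same arrays, lymphomas included, so that their own rise in lymphomas was fixed by that choice. Mouse 3 before transformation was also among these arrays, so the choice favoured a high value of Cad in it.

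**Figure D2:**
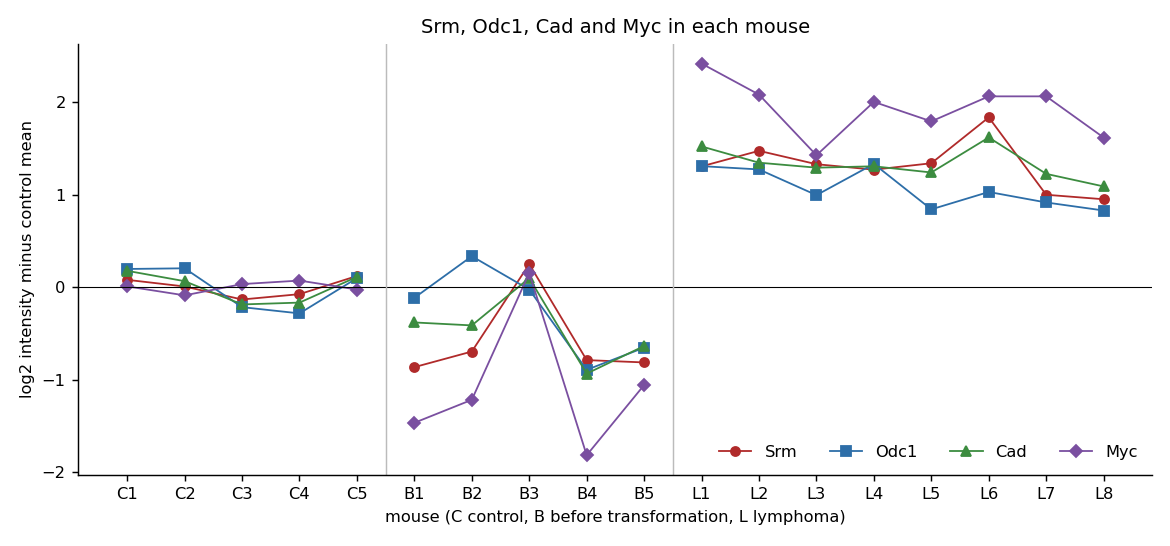
Log2 intensity of Srm, Odc1 (brightest probe set), Cad and Myc in each of the 18 mice, minus the gene's control mean; C, B and L are control, before transformation and lymphoma, and lines join mice of a group only to guide the eye. Srm, Cad and Myc of mouse B3 lie above the other 4 mice before transformation, and all 4 genes lie above 0 in every lymphoma. Cad was picked for its likeness to Srm over these mice.

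Myc, whose dimer with Max binds the E-box, fell before transformation by 1.08 ± 0.29 (limma adjusted p = 0.0327) and rose in lymphomas by 3.02 ± 0.26 over mice before transformation (limma adjusted p = 2.53e-06). Among 7 genes of the Myc network, 2 rose and none fell in that second comparison, where 16.1% of all genes rose and 18.5% fell. The other that rose was Max, by 0.68 ± 0.13 (limma adjusted p = 0.000990). Against controls 3 of the 7 were higher in lymphomas and 1 lower, where 17.3% of all genes were higher and 22.7% lower. Of 7 measured markers of dividing cells, none passed for lymphomas against mice before transformation. Against controls 2 of them (Rrm2 and Pcna) fell, where 22.7% of all genes fell. The summed intensity of these markers was 14291 to 28169 in lymphomas, 19053 to 29993 before transformation and 24667 to 29072 in controls. The part of Myc or of dividing cells in the Odc1 and Srm levels was not tested. Counts over all 18194 genes with a probe set were taken from the brightest probe set of each gene, 14020 of which were tested.

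Counted this way, 2 of the 6 measured members (Odc1 and Srm) rose in lymphomas over mice before transformation, where 16.1% of all genes did, and 1 (Oaz1) fell, where 18.5% did. Against controls the same members were counted, 2 higher and 1 lower, with 17.3% of all genes higher and 22.7% lower. Before transformation 1 member (Sat1) was higher than in controls and 0 lower, with 4.46% of genes higher and 6.33% lower. By probe set, 4 of the 12 rose and 1 fell in lymphomas over mice before transformation, where 16.0% of all tested probe sets rose and 20.2% fell (36.2% in either direction). Against controls 5 rose and 1 fell, the fifth being a dim Azin1 probe set, where 16.9% rose and 23.9% fell (40.8% in either direction). Before transformation 1 rose and 0 fell, where 4.77% rose and 6.72% fell (11.5% in either direction). The median log2 difference of the 6 members was 0.03 for lymphomas over mice before transformation, 0.17 over controls and -0.05 before transformation, and that of all genes -0.03, -0.03 and -0.02.

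**Figure D3:**
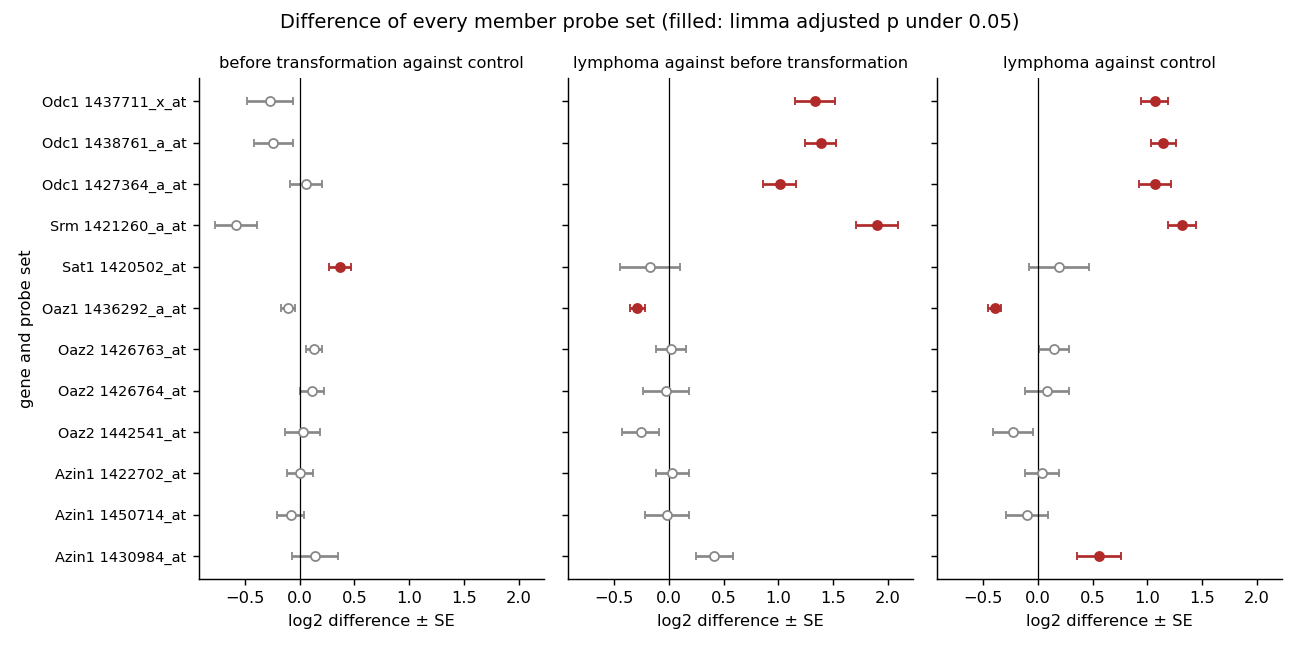
Log2 difference with its SE (horizontal axis) of each of the 12 member probe sets in the 3 comparisons; filled points passed a limma adjusted p of 0.05. All 3 Odc1 probe sets and Srm lie between 1.01 and 1.90 in both comparisons of lymphomas, and no Oaz2 probe set passed in any of the 3 comparisons.

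Sat1, the acetylase that starts polyamine breakdown, was higher before transformation and varied widely among tumours. Its probe set (1420502_at) read 851, 833, 690, 696 and 666 in controls and 983, 903, 1098, 903 and 924 before transformation. All 5 mice before transformation lay above all 5 controls, which held for 4.60% of probe sets. Sat1 rose by 0.37 ± 0.10 (1.29-fold, limma adjusted p = 0.0307). This call was near the threshold: it was lost without any 1 of mice 1, 3 and 5 before transformation or controls 3, 4 and 5 (limma adjusted p of 0.0553 to 0.0780). It was also lost with all 3 groups in 1 fit (0.595) or mouse number as a replicate block (0.0520). Granulocyte markers moved in the same comparison: 5 of 7 were lower before transformation and none higher, where 6.33% of all genes were lower and 4.46% higher. The summed intensity of these markers was 1410 to 2277 before transformation, 3217 to 9828 in controls and 1699 to 4253 in lymphomas. Camp, one of them, was at the floor in all 5 mice before transformation. The part of these cells in the Sat1 and Srm differences was not tested.

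In lymphomas Sat1 read 1617 and 1828 in lymphomas 1 and 2 and 549 to 899 in the other 6. The first 2 lay above every mouse of both other groups, and the other 6 lay below every mouse before transformation. The pooled difference was -0.17 ± 0.27 from mice before transformation (limma adjusted p = 0.654) and 0.20 ± 0.27 from controls (limma adjusted p = 0.594). Within mice numbered 1 and 2, Sat1 rose by 0.87 ± 0.13 over mice before transformation (limma adjusted p = 0.0123) and by 1.03 ± 0.10 over controls (limma adjusted p = 0.00334). Within mice numbered 3 and up it fell by 0.53 ± 0.16 from mice before transformation (limma adjusted p = 0.0263) and differed by -0.02 from controls (limma adjusted p = 0.926).

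The difference between both number sets, tested as an interaction chosen after the data were seen, was 1.40 ± 0.26 against mice before transformation (limma adjusted p = 0.0192) and 1.05 ± 0.25 against controls (0.0441). It passed in 727 and 753 of 24377 probe sets. The labels do not say what the numbers stand for. Controls 1 and 2 gave female signals and controls 3 to 5 male ones, so among controls number set and sex cannot be told apart. For mice before transformation against controls Sat1 differed by 0.16 in mice 1 and 2 (limma adjusted p = 0.355) and by 0.51 in those numbered 3 and up (limma adjusted p = 0.0240), and the interaction did not pass (limma adjusted p = 0.308).

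**Figure D4:**
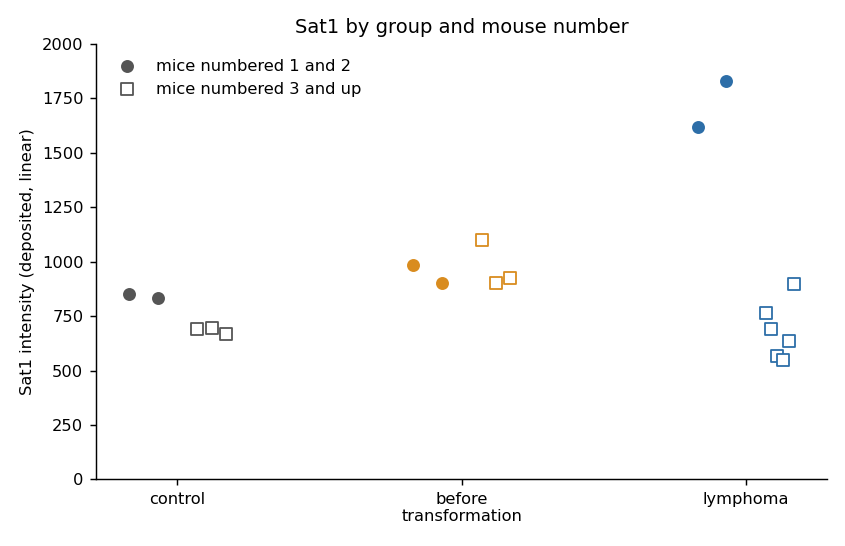
Deposited linear intensity of Sat1 (vertical axis, from 0) in each mouse by group; filled circles are mice numbered 1 and 2 and open squares those numbered 3 and up. Lymphomas 1 and 2 lie at 1617 and 1828, and the other 6 lymphomas at 549 to 899.

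Sat1 lies on the X chromosome, and sex goes partly with group. In mice with male signals alone Sat1 was higher before transformation by 0.49 (limma adjusted p = 0.0148). In mice with female signals alone lymphomas differed from controls by 0.09 (limma adjusted p = 0.921). Against controls, where 17.3% of all genes were higher and 22.7% lower in lymphomas, 8 of 10 markers of myeloid cells were higher and 2 lower. Their summed intensity was 7162 and 12365 in lymphomas 1 and 2, 7627 to 25574 in the other 6, 1979 to 5482 before transformation and 3318 to 5526 in controls, with none of the 10 at the floor in all mice of a group. Their part in the Sat1 levels was not tested. The patterns nearest to Sat1, which varied by 0.449, were Anapc10 (0.197), Zfp560 (0.212) and Pet100 (0.217).

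Oaz1, the more widely studied antizyme, was lower in lymphomas by a small and even amount. Its probe set (1436292_a_at) read 5797, 5658, 6178, 6188 and 5954 in controls and 5873, 5180, 5069, 5905 and 5659 before transformation. In lymphomas it read 4125 to 4769 with a median of 4606, below every mouse of both other groups, a state seen in 9.96% of probe sets against mice before transformation and in 12.6% against controls. The lymphomas were more alike for Oaz1 than for any other of the 6 genes by brightest probe set (log2 SD of 0.08, n = 8).

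Oaz1 fell by 0.39 ± 0.06 from controls (1.31-fold lower, limma adjusted p = 0.000100) and fell by 0.29 ± 0.07 from mice before transformation (1.22-fold lower, limma adjusted p = 0.00480). Before transformation the difference was -0.11 ± 0.06 (limma adjusted p = 0.366). The second of these calls depended on the scaling of bright probe sets: after quantile normalization the difference from mice before transformation was -0.08 ± 0.08 (limma adjusted p = 0.432), and that from controls -0.27 ± 0.07 (0.00848). Among the 116 tested probe sets at least as bright, Oaz1 included, the median difference of lymphomas from mice before transformation was -0.10 as deposited and 0.06 after quantile normalization. In mice numbered 1 and 2 alone Oaz1 differed by -0.32 from mice before transformation (limma adjusted p = 0.135), and in mice with female signals alone by -0.32 from controls (0.0648). The patterns nearest to Oaz1, which varied by 0.189, were Sharpin (0.097), Sec16a (0.098) and Mapk14 (0.099).

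Oaz2, a second antizyme, passed in none of the 3 comparisons with any of its 3 probe sets as fitted on the 2 groups. The brightest (1426763_at) read 609, 608, 604, 581 and 651 in controls, 722, 698, 661, 635 and 628 before transformation and 503 to 919 in lymphomas with a median of 679. All 3 groups overlapped. It differed by 0.13 ± 0.08 before transformation from control (limma adjusted p = 0.362), by 0.02 ± 0.14 in lymphomas from mice before transformation (0.927) and by 0.15 ± 0.14 in lymphomas from controls (0.405). The highest of the 8 tumours were lymphomas 1 and 2 with the second probe set (1426764_at), at 788 and 837 against 312 to 520 in the other 6. Within mice numbered 1 and 2 the rise over controls was 0.50 ± 0.11 with the first probe set (limma adjusted p = 0.0279) and 0.69 ± 0.10 with the second (0.00990), but the difference between number sets did not pass for either (limma adjusted p of 0.230 and 0.0968). The third and dimmest (1442541_at) differed by -0.26 ± 0.17 in lymphomas from mice before transformation (limma adjusted p = 0.261), and with number set as a block it fell by 0.33 ± 0.12 (limma adjusted p = 0.0331). Lymphomas 1 and 2 were its lowest tumours at 187 and 141. The probe sets of this gene thus disagreed on these 2 tumours.

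Azin1, the antizyme inhibitor, did not pass with its brighter probe sets. With the brightest (1422702_at) the values were 827, 845, 663, 776 and 985 in controls, 718, 887, 951, 778 and 762 before transformation, and 577 to 1106 in lymphomas with a median of 850. Its differences were 0.00 ± 0.12 before transformation, 0.03 ± 0.15 for lymphomas over mice before transformation and 0.04 ± 0.16 over controls (limma adjusted p of 0.993, 0.885 and 0.867). The second (1450714_at) gave -0.08 ± 0.12, -0.02 ± 0.20 and -0.10 ± 0.19 in that order (limma adjusted p of 0.790, 0.957 and 0.708).

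The dimmest Azin1 probe set (1430984_at) read 440, 464, 219, 342 and 469 in controls, 326, 426, 522, 438 and 366 before transformation and 350 to 738 in lymphomas. Lymphomas 2 to 8 lay above every control. It rose over controls by 0.56 ± 0.20 (1.47-fold, limma adjusted p = 0.0371) and differed from mice before transformation by 0.42 ± 0.17 (limma adjusted p = 0.0623). The rise over controls lost its call in 11 of 25 alternative fits, among them those without any 1 of lymphomas 2, 3, 4 and 5 or controls 3 and 4 (limma adjusted p of 0.0529 to 0.120, difference 0.36 without control 3) and that with mouse number as a replicate block (0.0766). In mice numbered 1 and 2 alone the difference was 0.01 ± 0.27 (limma adjusted p = 0.984).

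Genes around the pathway were read from 5 lists holding 35 genes, of which 25 were tested. The first, named ornithine supply, also holds genes with other roles. The others are polyamine oxidation with other acetylases and antizymes, hypusine formation, supply and salvage of S-adenosylmethionine, and transport. In lymphomas 10 of the 25 rose and 1 fell against mice before transformation, and 9 rose and 4 fell against controls. Both counts of rises include Arg1, which passed the filter on dim probe sets only through lymphomas. Of all genes 16.1% rose and 18.5% fell in the first of these comparisons, and 17.3% rose and 22.7% fell in the second. Their median log2 difference was 0.10 and 0.22. Before transformation 1 of 25 fell and 0 rose, where 6.33% of all genes fell and 4.46% rose, with a median of -0.02. That gene was Atp13a3, a polyamine transporter, which fell by 0.60 ± 0.09 (limma adjusted p = 0.000839), with 24 genes not passing.

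The single lists hold 2 to 7 tested genes, and each of their counts is to be read against the same shares of all genes. Handling of the building blocks was read from 2 lists. That for ornithine held Arg1, Arg2, Oat, Otc, Azin2, Agmat, Ass1 and Asl, not all of which supply ornithine. For ornithine, 2 of 7 tested genes rose in lymphomas over both groups and none fell. Oat, ornithine aminotransferase, rose by 0.75 ± 0.17 over mice before transformation and by 0.87 ± 0.16 over controls (limma adjusted p of 0.00306 and 0.000517). The other, singled out after its values were seen, was Arg1, arginase. It was at the floor in all 10 mice without tumours and in lymphoma 1, and at 76.4 to 440 in the other 7 lymphomas. Arg1 passed the filter on dim probe sets only through lymphomas, and the mice without tumours had no spread at the floor. Its calls are therefore counted by the rule and give no support of their own. For S-adenosylmethionine, 3 of 7 rose over mice before transformation and none fell, while 2 rose and 2 fell against controls. Ahcy, which clears the by-product of methylation, rose by 0.95 ± 0.18 and by 0.67 ± 0.15 (limma adjusted p of 0.000815 and 0.00240). Of the methionine salvage enzymes, which recycle the by-product of Srm and Sms, Enoph1 rose by 0.83 ± 0.17 and Mri1 by 0.40 ± 0.09 over mice before transformation (limma adjusted p of 0.00147 and 0.00359). The 2 that fell against controls, named after their values were seen, were Mtap, which starts the same salvage, and Mat2b, a regulatory subunit of S-adenosylmethionine synthesis.

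Hypusine is made from spermidine on the translation factor Eif5a by Dhps and Dohh. Of 4 genes tested, 2 rose in lymphomas over both groups and none fell. Dhps rose by 0.62 ± 0.13 over mice before transformation and by 0.60 ± 0.14 over controls (limma adjusted p of 0.00169 and 0.00287). The second, named after its values were seen, was Dohh. Of the 2 genes tested for oxidation and related functions, 1 rose and none fell against either group, and this was Oaz3, an antizyme known from testis, also named after its values were seen.

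Transport gave rises and falls. Of 5 genes tested 2 rose and 1 fell against mice before transformation, and 2 rose and 2 fell against controls, where 18.5% and 22.7% of all genes fell. Slc7a1 rose by 0.98 ± 0.21 and by 0.95 ± 0.13 (limma adjusted p of 0.00240 and 3.96e-05). Slc3a2, the heavy chain of amino acid exchangers, which has also been linked to polyamine export, rose by 0.86 ± 0.11 over controls (limma adjusted p = 3.2e-05). Slc12a8, a membrane carrier of the cation chloride cotransporter family, fell by 1.13 ± 0.21 from controls (limma adjusted p = 0.000638), and Atp13a3 was the other that fell.

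**Figure D5:**
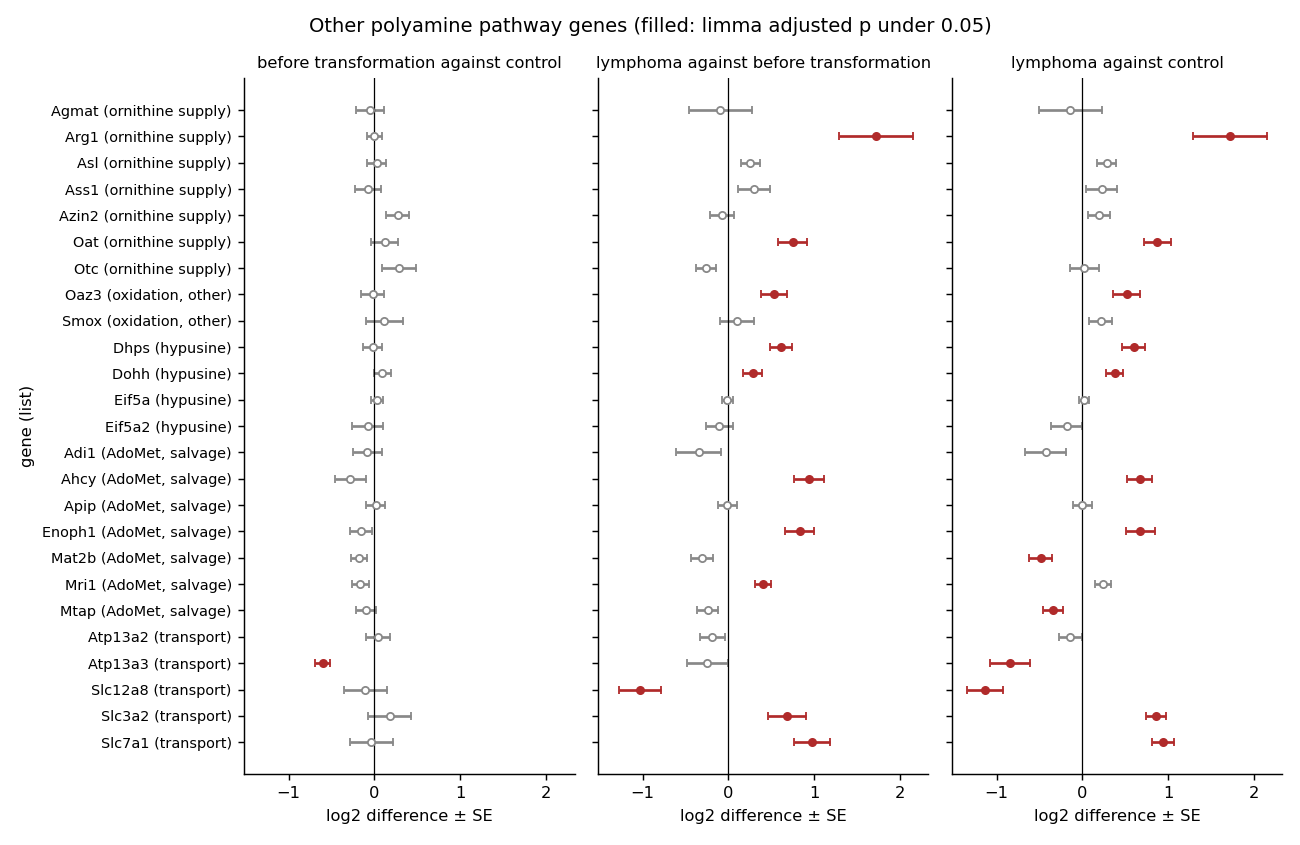
Log2 difference with its SE (horizontal axis) of the 25 tested pathway genes outside the members, by list, in the 3 comparisons; filled points passed a limma adjusted p of 0.05. In the first comparison 1 point is filled (Atp13a3), and in the second 11 are, 10 of them to the right of 0.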

How the data were processed

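The series matrix holds 1 linear intensity per probe set and mouse, deposited by the authors after analysis in dChip, as the design text states. Its version, model and scaling were not given in the sources used here. Of all values 1.20% were blank, on 17 arrays; control 1 had no blanks and held 605 of 606 negative values. Blank and low values were set to the 20th percentile of all values, and log2 was taken. Gene symbols came from the annotation of the array platform: 34958 have 1 symbol, 932 several and 9211 none, and only the first were used. Those above the 40th percentile (109) on at least 5 arrays were tested with limma 3.58.1 in R 4.3.3, with an intensity trend, on the 2 groups compared. A gene was counted by its probe set with the highest mean.

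Nothing beyond the design text says how mice were kept or hybridised, and p-values measure the spread between these mice. The number of arrays limits the precision. Tested on 1 simulated set per comparison, the procedure recovered 31.3%, 20.9% and 16.4% of changes of 0.5 on the log2 scale. Of changes of 1 it recovered 76.1%, 77.6% and 73.1%. The order is before transformation against control, lymphoma against before transformation and lymphoma against control. Few of the 24377 simulated probe sets were changed, and both groups had the same spread, unlike in the data. These shares therefore do not give the recovery in the data. Members and lists were chosen with earlier results of these data known. Text names all member probe sets, the 6 passing pathway genes with the smallest adjusted p per comparison, and the 3 nearest patterns of members that passed. Others are said to be named after their values were seen. Same-numbered mice are not the same animals, so numbers were not taken to pair the mice. Their deviations from group means correlated at -0.11 to 0.39 over 15 pairs, of which 8 exceeded 0.1. Correlations of differently numbered mice were not taken for comparison, so these values cannot show whether mice with the same number share deviations. With number set as a block, 3726 probe sets passed before transformation against control, where 2801 did without it. For lymphomas over mice before transformation 11397 passed with this block, where 8828 did without it. Arrays correlated at 0.717 to 0.983. Alternatives covered scaling, floor, filter, choice of probe set, samples in the fit, blocks, sex signals and leaving out each mouse. Sex signals were used only in the comparisons with controls.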

Additional observations from a re-analysis of the deposited data

Results flagged for a closer look

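Srm read 716.1 in mouse 3 before transformation, far above the other 4 mice of its group (330 to 371). On the log2 scale the gap was 0.849 of the group's range. Azin1, with the probe set 1450714_at, read 990.2 in control 5 against 743 to 794 in the other controls. A gap that just reaches the cutoff used for these flags arises by chance in about 1 in 20 groups, and 36 groups were checked. Sat1 differed between mice numbered 1 and 2 and those numbered 3 and up in how lymphomas compared with mice before transformation, by 1.395 on the log2 scale (limma adjusted p = 0.0192), and in how they compared with controls, by 1.05 (limma adjusted p = 0.0441). This interaction was chosen after the data were seen and rests on lymphomas 1 and 2 in the first number set.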

How the results depend on the processing

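Odc1 and Srm kept their rise in lymphomas over both groups in every alternative run for them. Sex signals were not among these for lymphomas over mice before transformation, where sex and group nearly coincide. Most of the 864 alternatives of single probe sets were of differences that had not passed and so had no call to lose. The call was lost in 23. These were 9 of 23 for Sat1 before transformation against control and 11 of 25 for Azin1 1430984_at over controls. The rest were for Oaz1, 2 of 25 from mice before transformation and 1 of 27 from controls. Another 11 gained a call, and 55 changed sign with neither fit passing, all of them of differences that had not passed. In 1 more the sign turned and the alternative passed: Sat1 in lymphomas over mice before transformation, at 0.8678 in mice numbered 1 and 2 alone. The cause was not tested. Probe sets past the threshold before transformation numbered 2801, against 1478 with 1 probe set per gene and 1553 with their mean (fewer features tested), 1593 with all 3 groups in 1 fit and 1821 with male signals alone. For lymphomas over mice before transformation they numbered 8828, against 4816, 4833 and, in mice numbered 1 and 2, 5450. For lymphomas over controls they numbered 9958, against 5618, 5656 and, with female signals alone, 3530. Leaving out 1 mouse gave 2144 to 3018, 7055 to 9338 and 8388 to 10665.

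Member genes higher before transformation were 0 with all 3 groups in 1 fit, 0 with the replicate block and 0 in mice numbered 1 and 2, and 0 to 1 leaving out 1 mouse. Those lower were 1 (Srm) in mice numbered 1 and 2, and 0 to 1 leaving out 1 mouse. In lymphomas over mice before transformation those lower were 0 after quantile normalization, 0 in mice numbered 1 and 2 and 2 in those numbered 3 and up. Over controls those higher were 4 in mice numbered 1 and 2, and those lower 0 with female signals alone. The replicate block also took the call from Azin1 1430984_at over controls (limma adjusted p = 0.0766) and gave it one over mice before transformation (0.0367). Small groups and sex, number set and genotype that partly coincide limit these values.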

Other observations

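Arg1, which makes ornithine and is also a gene of some macrophages, was measured above the floor only in tumours among these 18 mice. Lymphoma 8 had the highest Arg1 intensity, 440, and the highest summed myeloid signal, 25574, and lymphoma 1 had Arg1 at the floor and the lowest myeloid sum of the tumours, 7162. Lymphoma 2 had an Arg1 intensity of 419 with a myeloid sum of 12365. The share of Arg1 signal that came from myeloid cells was not tested.

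Within the Myc network, 2 genes besides Myc passed before transformation, where 4.46% of all genes rose and 6.33% fell. Mxi1, a partner of Max that opposes Myc, fell by 0.81 ± 0.09 (limma adjusted p = 7.45e-05), and Mycl, a relative of Myc, rose by 0.92 ± 0.14 (limma adjusted p = 0.00106). Both were named after their values were seen.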
